A study of Mus musculus with 447 samples.

Results

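The genes Npy, Ppy, Pyy and Npy1r were followed through 447 single-cell transcriptomes of fetal mouse pancreas. They were chosen by name, as the neuropeptide Y peptide family and its receptor Npy1r, and all 4 were found among the 40824 genes of the deposited matrices. The cells were taken at E15.5, an embryonic day on which islet cell types are forming, sorted as GFP-positive cells into wells of a plate and read by Smart-seq3, which covers full-length polyadenylated RNA of a single cell. The group labelled Pdx1CreNgn3KONeurod1OE (Ngn3KO here) carried a NeuroD1 overexpression allele and a deletion of Neurog3 (Ngn3), both under Pdx1-driven Cre, and the group labelled Pdx1CreNeurod1OE (Neurod1OE here) carried the overexpression allele alone. The series' design text names the driver as Pdx1CreER, an inducible form of Cre, and the Neurog3 allele as Ngn3fl. Pdx1 is active in the progenitors of the pancreatic epithelium, from which duct, exocrine and endocrine cells all arise, so the driver does not select endocrine cells. By the labels both groups thus carried the NeuroD1 overexpression allele, and wild-type cells were not analysed here.

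The sample titles divide the cells into set 2, with 322 cells (63.7% Ngn3KO and 36.3% Neurod1OE), and set 3, with 30 Ngn3KO and 95 Neurod1OE cells. No source explains this number, and neither animals nor litters are named for the cells. Each genotype in each set thus counted as 1 sample, with no test between samples. Intervals are at 95%, by the exact Poisson method for levels and the Clopper-Pearson method for percentages, and cover counting error only. Total counts ran from 25769 to 2788066 per cell, with group medians of 344128 to 728074. Neurog3 RNA was scarce in both groups of set 2, at 3.06 CPM in Ngn3KO and 3.89 CPM in Neurod1OE cells, so it did not tell the genotypes apart there; in set 3 it stood at 3.72 CPM in Ngn3KO and 17.8 CPM in Neurod1OE cells, and at 0.426 and 5.39 CPM without the highest cell of each group. Neurod1 stood at 292 CPM in Ngn3KO and 332 CPM in Neurod1OE cells of set 2, and at 30.4 CPM with reads in 23 of 30 Ngn3KO cells and 217 CPM with reads in 90 of 95 Neurod1OE cells of set 3. The sets differed in makeup: glucagon RNA (Gcg) reached 1000 CPM in 98.5% of Ngn3KO and 96.6% of Neurod1OE cells of set 2, but in 3.33% of Ngn3KO and 33.7% of Neurod1OE cells of set 3. In set 3 the acinar enzyme gene Cpa1 reached 1000 CPM in 96.7% of Ngn3KO and 16.8% of Neurod1OE cells.

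Neuropeptide Y (from Npy), peptide YY (from Pyy) and pancreatic polypeptide (from Ppy) are related peptides of 36 residues with an amidated end. They are cut from longer precursors in secretory granules and act on a family of G protein-coupled receptors. In the pancreas, pancreatic polypeptide defines the PP cell, peptide YY appears early in the endocrine lineage and is later found with glucagon and pancreatic polypeptide, and neuropeptide Y is made by sympathetic nerves and by immature beta cells. The Npy1r receptor responds best to neuropeptide Y and peptide YY and lowers cyclic AMP, whereas the receptor from Npy4r prefers pancreatic polypeptide.

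The 36 codons of each mature peptide are shown to let the family likeness be read directly, and because reads can only be told apart where the genes differ. Capitals mark the 49 bases that are the same in all 3 genes. Each stretch is cut by an intron, lying in exons 2 and 3 of the GENCODE vM21 transcript: Npy at chr6:49823682-49827492 on the plus strand, Ppy at chr11:102100280-102100624 and Pyy at chr11:102107053-102107268 on the minus strand (GRCm38, which the submitters' processing notes call mm10).
Npy: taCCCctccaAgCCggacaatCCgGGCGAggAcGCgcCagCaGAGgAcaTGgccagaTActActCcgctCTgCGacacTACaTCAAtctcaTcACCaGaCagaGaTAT
Ppy: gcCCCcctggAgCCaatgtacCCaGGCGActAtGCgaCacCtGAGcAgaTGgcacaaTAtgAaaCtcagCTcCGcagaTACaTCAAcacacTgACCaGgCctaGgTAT
Pyy: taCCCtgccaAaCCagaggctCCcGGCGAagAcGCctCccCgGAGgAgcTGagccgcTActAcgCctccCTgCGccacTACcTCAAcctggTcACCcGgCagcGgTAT
Over these bases Pyy and Npy were 70.4% identical, Ppy and Npy 56.5%, and the neighbouring genes Ppy and Pyy 53.7%. The longest identical run between any pair of the 3 genes' transcripts was 10 bases, against reads of 100 bases. Sequence likeness therefore left no read-length stretch in which reads of one peptide gene could be counted for another.

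Ppy (chr11:102099930-102101319) and Pyy (chr11:102106676-102107832) lie side by side on the minus strand, 5356 bases apart, with no annotated gene between them and no overlap. Their upstream stretches, 250 bases before each RefSeq start (GRCm38.p6), are shown because the RNA of the pair moved together across cells. Capitals mark matches to CANNTG, the E-box core bound by basic helix-loop-helix factors such as NeuroD1 and Neurog3, and to TATAA. The Ppy stretch is chr11:102101320-102101569 and the Pyy stretch is chr11:102107833-102108082, both on the minus strand.
Ppy: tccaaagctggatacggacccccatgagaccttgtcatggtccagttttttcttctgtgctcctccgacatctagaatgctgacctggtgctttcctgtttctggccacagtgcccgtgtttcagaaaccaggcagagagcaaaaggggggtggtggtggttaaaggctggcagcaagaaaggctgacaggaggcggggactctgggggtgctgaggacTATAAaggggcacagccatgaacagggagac
Pyy: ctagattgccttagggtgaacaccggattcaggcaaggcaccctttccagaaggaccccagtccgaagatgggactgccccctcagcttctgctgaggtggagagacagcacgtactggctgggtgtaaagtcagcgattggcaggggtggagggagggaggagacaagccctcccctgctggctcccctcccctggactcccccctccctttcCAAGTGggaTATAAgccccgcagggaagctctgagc
On either strand, TATAA occurred once in each, starting 31 bases upstream in Ppy and 27 bases upstream in Pyy. CANNTG occurred once in Pyy, starting 36 bases upstream, and not in the Ppy window. Among 32817 promoter stretches of the same length, 22.8% held TATAA and 66.2% held CANNTG. Neither window held the E-box form CAGATG on either strand, which 14.5% of all stretches held. The palindromic form CAGCTG, in 13% of all stretches, was also in neither. A match is a description of letters only.

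Pyy was the most abundant of the 4 genes in every group, both in CPM (counts scaled to a common total) and in CPM per kilobase of exon. In CPM per kilobase, Pyy stood at 19472 in Ngn3KO and 26867 in Neurod1OE cells of set 2, and Ppy at 2847 and 4294. Npy stood at 475 in Ngn3KO and 12.8 in Neurod1OE cells, and Npy1r at 2.95 and 2.21. The order Pyy, Ppy, Npy, Npy1r was thus the same in both genotypes of set 2 per kilobase; in CPM, Npy and Npy1r did not differ beyond their counting intervals in Neurod1OE cells.

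**Figure D1:**
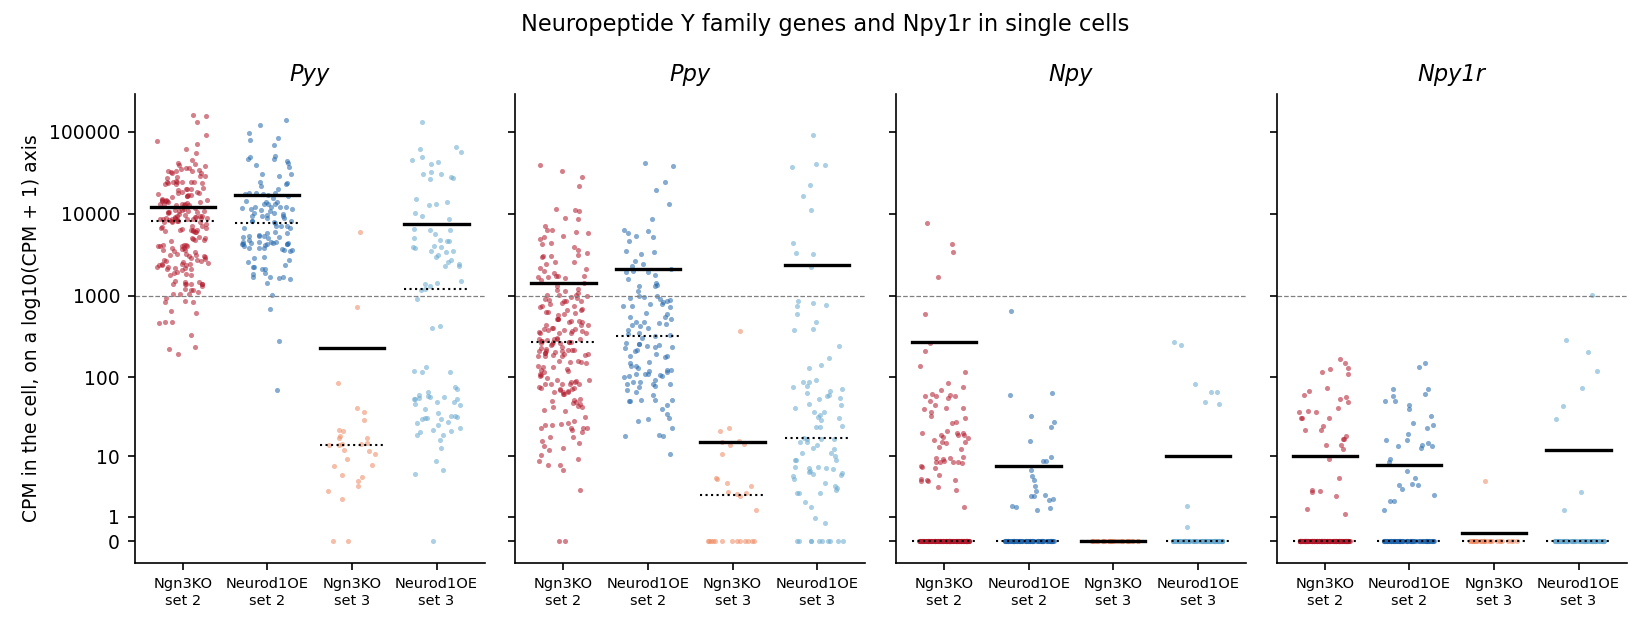
CPM of Pyy, Ppy, Npy and Npy1r in every cell (points; log10(CPM + 1) axis) of the 4 groups, with the level summed over the group's cells as a solid bar, the median cell as a dotted bar and 1000 CPM as a dashed line. Nearly all cells of set 2 lie above 1000 CPM for Pyy, set 3 divides into cells near 10 to 100 CPM and cells above 1000 CPM, and the summed Npy level in Ngn3KO cells of set 2 lies far above its median cell, which is 0.

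Pyy RNA was present in nearly every cell of set 2. Single cells ran from 192.6 to 161927 CPM with a median of 8119 CPM in Ngn3KO cells, against 68.9 to 141795 CPM with a median of 7683 CPM in Neurod1OE cells, so the ranges overlapped almost wholly. At least 1000 CPM, called Pyy-high here, was reached by 93.7% of Ngn3KO cells (interval 89.4% to 96.6%) and 97.4% of Neurod1OE cells (92.7% to 99.5%). The summed level was 12287 CPM (12263 to 12311) in Ngn3KO and 16953 CPM (16924 to 16982) in Neurod1OE cells, a log2 ratio of -0.46 after adding 1 CPM.

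Ppy was lower in most cells and far more unequal. It ran from 0 to 39420 CPM with a median of 274 CPM in Ngn3KO cells and from 10.7 to 41684 CPM with a median of 324 CPM in Neurod1OE cells of set 2. Ppy-high cells, at 1000 CPM or more, were 50 among Ngn3KO cells (24.4%, 18.7% to 30.9%) and 29 among Neurod1OE cells (24.8%, 17.3% to 33.6%), nearly the same share. Summed Ppy was 1423 CPM (1415 to 1432) in Ngn3KO and 2147 CPM (2136 to 2157) in Neurod1OE cells, a log2 ratio of -0.59. Cells above 10000 CPM were 7 of the Ngn3KO and 5 of the Neurod1OE cells.

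Npy was far higher in Ngn3KO cells of set 2 by its summed level, and the difference sat in a handful of cells. The median cell had 0 CPM in both groups, and the highest had 7775 CPM in Ngn3KO and 653 CPM in Neurod1OE cells. Any Npy read was found in 65 Ngn3KO cells (31.7%, 25.4% to 38.6%) and 24 Neurod1OE cells (20.5%, 13.6% to 29%); after each cell was thinned to 165298 reads, leaving out 31 Ngn3KO and 2 Neurod1OE cells, the shares were 29.3% and 13.9%. Summed Npy was 269 CPM (265 to 273) in Ngn3KO and 7.27 CPM (6.67 to 7.90) in Neurod1OE cells, a log2 ratio of 5.03. A single Ngn3KO cell held 54.7% of that group's Npy reads and a single Neurod1OE cell 58.1% of its group's.

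Npy1r was sparse in both genotypes of set 2. Reads were present in 36 Ngn3KO cells (17.6%) and 34 Neurod1OE cells (29.1%), and in 16.1% and 23.5% of the thinned cells. No cell of set 2 reached 1000 CPM, the highest having 169.4 CPM in Ngn3KO and 148.4 CPM in Neurod1OE cells. Summed Npy1r was 10.2 CPM (9.51 to 10.9) in Ngn3KO and 7.64 CPM (7.03 to 8.29) in Neurod1OE cells, a log2 ratio of 0.37, which turned to -0.13 when each cell was weighted equally.

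Of the 4 genes, all of which passed the limits for a measured gene in set 2 (10 CPM, with reads in 10% of the cells, in either genotype), 1 was at least 2-fold higher in Ngn3KO cells, namely Npy, and 0 were 2-fold lower. Over all 10010 genes measured there, 0.859% were higher and 1.67% lower, with a median log2 ratio of -0.07. Ppy and Pyy stayed within 2-fold, and their sign depended on which cells were taken. By Xist and 4 Y-linked genes, 95.1% of Ngn3KO cells of set 2 were female and 0 were male, against 64 female (54.7%) and 48 male Neurod1OE cells. Between female cells alone Pyy stood at 12387 CPM in Ngn3KO and 6948 CPM in Neurod1OE cells (log2 ratio 0.83) and Ppy at 1459 and 1182 CPM (0.30), the reverse of the sign over all cells. Female Neurod1OE cells themselves had less Pyy than the male ones, whose level was 25528 CPM.

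The predicted gene Gm12338 divided both genotypes of set 2 into cells at or above 10 CPM (52.7% of Ngn3KO and 43.6% of Neurod1OE cells) and cells below it (97 Ngn3KO and 66 Neurod1OE cells), a division the labels do not name. Within the cells at or above 10 CPM, Npy stood at 466 CPM in Ngn3KO and 4.61 CPM in Neurod1OE cells (log2 ratio 6.38), and below 10 CPM at 19.1 and 10.0 CPM (0.87), which no longer passed 2-fold. An Npy read was found in 51.9% of Ngn3KO and 35.3% of Neurod1OE cells at or above 10 CPM of Gm12338. Below it the shares were 9.28% and 9.09%, nearly the same in both genotypes. Ppy stood at 2197 CPM in Ngn3KO and 3108 CPM in Neurod1OE cells at or above 10 CPM of Gm12338 (log2 ratio -0.50), and at 443 and 1155 CPM below it (-1.38), where it was lower by more than 2-fold. Npy1r changed sign between the subsets, with 15.7 CPM in Ngn3KO and 4.80 CPM in Neurod1OE cells in the first (1.53), and 3.19 and 10.6 CPM in the second (-1.47). Pyy was higher in the Gm12338-positive than in the Gm12338-negative cells of each genotype, at 17023 against 6279 CPM in Ngn3KO and 26775 against 6815 CPM in Neurod1OE cells. Within each subset Pyy was thus lower in Ngn3KO cells, as over all cells and unlike between female cells. In Neurod1OE cells Pyy stood at 6948 CPM in female and 6815 CPM in Gm12338-negative cells. It stood at 25528 CPM in male and 26775 CPM in Gm12338-positive cells. Sex and Gm12338 may thus mark nearly the same Neurod1OE cells, whereas Ngn3KO cells fell into both Gm12338 classes. The part of sex and of the Gm12338 division in the genotype ratios was not tested. With 0 male Ngn3KO cells in set 2, sex could be held constant only among female cells. Among these, the genotypes may not have been matched for Gm12338.

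By reads, Npy in Ngn3KO cells of set 2 lay mainly in a few cells rich in insulin RNA. The 4 cells at 1000 CPM of Npy or more held 94% of the group's Npy reads, and all 4 also had at least 1000 CPM of insulin (Ins1 and Ins2 summed). Cells 86, 28 and 53 had 7775, 4343 and 3431 CPM of Npy beside 70337, 85796 and 147505 CPM of insulin. Each of the 3 also had over 20000 CPM of the beta cell peptide gene Iapp, and their Gcg levels were 2299, 816 and 1556 CPM. The fourth cell differed from them: it had 1714 CPM of Npy with 186646 CPM of Gcg, 26958 CPM of Iapp and 1692 CPM of insulin.

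In the 4 cells together, 7 of 8 beta markers stood at 50 CPM or more and the list summed to 117753 CPM, against 2996 CPM and 3 of 8 in the other Ngn3KO cells. The neural or Schwann markers Sox10, Dbh and Prph were at 0 in those 4 cells, in which 2 of 7 markers of that list stood at 50 CPM or more. Insulin-high cells without Npy were also seen: of 10 insulin-high Ngn3KO cells, 7 had an Npy read, and of 5 insulin-high Neurod1OE cells 1 had one. When insulin-high cells were left out, a setting chosen after the data were seen, Npy stood at 16.2 CPM (15.3 to 17.1) in Ngn3KO and 7.48 CPM (6.86 to 8.14) in Neurod1OE cells, a log2 ratio of 1.02. The genotype difference in Npy therefore remained past 2-fold by a narrow margin but at a small part of its size.

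**Figure D2:**
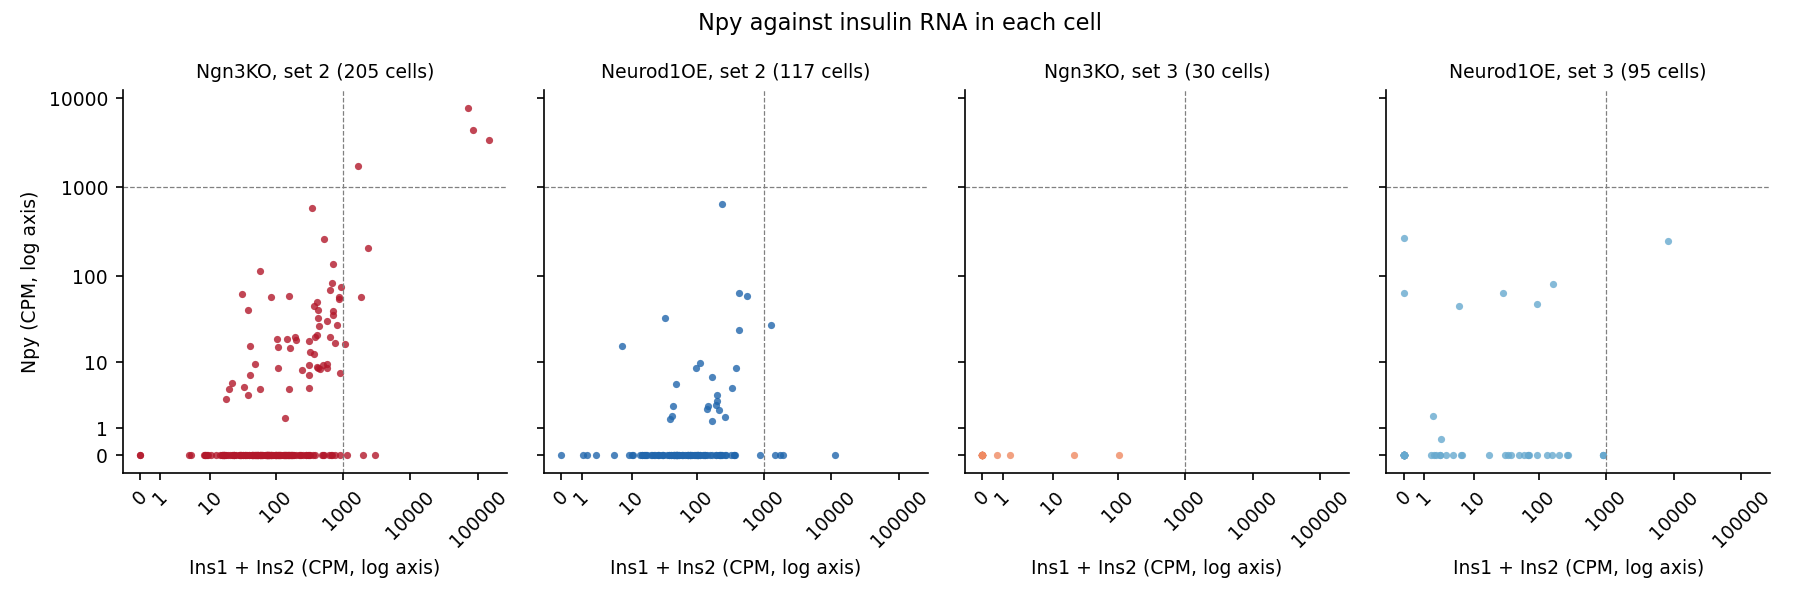
Npy against summed Ins1 and Ins2 in every cell of the 4 groups, both in CPM on log10(CPM + 1) axes, with dashed lines at 1000 CPM. The 4 cells above both lines are all Ngn3KO cells of set 2, and set 3 Ngn3KO cells all lie at 0 for Npy.

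Ranked over 10469 other genes with reads in at least 20% of cells of each of 3 groups (Ngn3KO and Neurod1OE of set 2, and Neurod1OE of set 3), the gene whose RNA followed Npy most closely across cells was Ins2. Its Spearman correlation with Npy was 0.54, 0.32 and 0.33 in these groups. Ins1 came next, at 0.38, 0.19 and 0.16, followed by Mrpl23, Ubb and Fam102a at mean values of 0.24 or less. Values of this size in a gene with mostly 0 counts carry little weight. The points in each such value are cells that share a preparation and differ in depth. In set 2 the presence of Npy reads also followed Gm12338, whose part in these values was not tested.

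In set 3, Ppy and Pyy were low in Ngn3KO cells and high in a subset of Neurod1OE cells. Ppy ran from 0 to 367 CPM with a median of 2.69 CPM in Ngn3KO cells and from 0 to 90586 CPM with a median of 17.5 CPM in Neurod1OE cells. Pyy ran from 0 to 6035 CPM with a median of 14.1 CPM in Ngn3KO cells and from 0 to 133277 CPM with a median of 1212 CPM in Neurod1OE cells. The Ngn3KO maximum lay above the 75th percentile of Neurod1OE cells for both genes, at 90.8 CPM of Ppy and 5999 CPM of Pyy, so the ranges overlapped widely, whereas the Ngn3KO 75th percentile was 9.30 CPM of Ppy and 20.5 CPM of Pyy. Summed Ppy was 15.4 CPM (13.8 to 17.1) in Ngn3KO and 2343 CPM (2332 to 2354) in Neurod1OE cells, a log2 ratio of -7.16, and summed Pyy 232 CPM (225 to 238) and 7588 CPM (7568 to 7609), a log2 ratio of -5.03.

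In Ngn3KO 0 of 30 cells were Ppy-high, for which a count of 3 would be a share of 10.0% and the upper Clopper-Pearson bound is 11.6%, and in Neurod1OE 11 of 95 (11.6%, 5.92% to 19.8%) were. Pyy-high cells were 1 of 30 (3.33%, 0.0844% to 17.2%) in Ngn3KO and 49 of 95 (51.6%, 41.1% to 62%) in Neurod1OE. That single Ngn3KO cell held 83.3% of the group's Pyy reads, and without the highest cell of each group Pyy was at 39.98 CPM in Ngn3KO and 6413 CPM in Neurod1OE cells. For Ppy the same step gave 3.74 and 1517 CPM.

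Both genes measured there, Ppy and Pyy, were thus lower by more than 2-fold in the Ngn3KO cells and 0 were higher. The background was wide: of 10478 genes 31.8% were lower and 5.96% higher, and the median log2 ratio was -0.57, which TMM scaling moved to -0.06 and DESeq2 size factors to 0.05. Ppy and Pyy lay far beyond this shift under each scaling. The acinar list moved with the genotype: 10 of 13 markers stood at 50 CPM or more in Ngn3KO and 6 of 13 in Neurod1OE cells, with summed levels of 44528 and 4673 CPM and no acinar marker at 0 in either group. The part of this difference in makeup was not tested. Only 1 of the 30 Ngn3KO cells had Cpa1 below 1000 CPM, so the genotypes could be set side by side only among cells rich in Cpa1. All 30 Ngn3KO cells were male; set beside the 64 male Neurod1OE cells, the log2 ratios were -7.48 for Ppy and -5.17 for Pyy.

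Among cells rich in the acinar gene, most had little Ppy and Pyy in both genotypes, and a few Neurod1OE cells had much. In cells with Cpa1 at 1000 CPM or more and Gcg below 1000 CPM, Pyy was read in 93.1% of 29 Ngn3KO cells (median 14.03 CPM, median total 711280) and in all 15 Neurod1OE cells (median 27.9 CPM, median total 1375500). Ppy was read in 58.6% of these Ngn3KO and 86.7% of these Neurod1OE cells, at medians of 2.83 and 4.85 CPM. Summed Pyy was 214 CPM in these Ngn3KO and 7036 CPM in these Neurod1OE cells, and 14.3 and 2123 CPM without the highest cell of each group. Summed Ppy was 15.9 CPM in the Ngn3KO and 3678 CPM in the Neurod1OE cells, and 3.89 and 296 CPM without the highest cell. Pyy-high cells were 1 of the 29 and 3 of the 15, and Ppy-high cells 0 of the 29 and 2 of the 15. The share of cells with a Pyy or Ppy read is therefore not read here as a share of cells expressing the gene.

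Npy and Npy1r had few reads in set 3. Among cells with Cpa1 at 1000 CPM or more and Gcg below 1000 CPM, both were almost absent in both genotypes. The 29 Ngn3KO cells of this kind had 0 Npy and 6 Npy1r reads, and the 15 Neurod1OE cells had 1 and 2. Npy had 0 reads in the 30 Ngn3KO cells, where a count of 3 would be 0.136 CPM, and 10.0 CPM (9.32 to 10.8) in Neurod1OE cells, with reads in 9 of 95 cells. Set at 3 counts over the group, the Ngn3KO level would be 73.9-fold lower. This is not a lower bound, because the upper Poisson limit for the 0 reads was 0.167 CPM. Npy did not reach the limits for a measured gene there. Of the Neurod1OE reads, 43.6% came from cell 78, which also had 8326 CPM of insulin, 22233 CPM of Iapp and 124370 CPM of Gcg. The cell with the highest Npy level, cell 1 with 269 CPM, was of another kind, with the neural crest gene Sox10 at 982 CPM and with Ins1, Ins2 and Ppy at 0. In it, 3 of 5 mesenchyme markers stood at 50 CPM or more.

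Npy1r had 6 reads in 1 Ngn3KO cell of set 3 (0.272 CPM) and 12.3 CPM (11.5 to 13.1) in Neurod1OE cells, where 9 of 95 had a read. Neurod1OE cell 35 held 56.6% of those reads at 1033 CPM. It was the only cell of the series at 1000 CPM of Npy1r, and had 31.5 CPM of Gcg, 75.6 CPM of Pyy and 418 CPM of Neurod1. The next highest, cells 22 and 5 of the same group, had 289 and 206 CPM of Npy1r and likewise little Gcg, at 132.7 and 54.8 CPM. Among set 3 Neurod1OE cells Npy1r stood at 1.63 CPM in those with Gcg at 1000 CPM or more and 17.5 CPM in those below. Cell 35 held 59.1% of the reads in the cells below, which stood at 7.21 CPM without it. A read was present in 6 of 63 cells below 1000 CPM of Gcg, 3 of 18 at 1000 to 50000 CPM and 0 of 14 at 50000 CPM or more. Npy1r was not a measured gene in this comparison, so these levels rest on a few cells.

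The other receptor genes were almost silent. Npy2r, Npy5r and Npy6r had 0 reads in all 447 cells, for which 3 counts would be 0.0121 CPM of 248262031 reads. Npy4r, whose product prefers pancreatic polypeptide, had 3 reads in 2 Ngn3KO cells of set 2. Npy5r lies 9063 bases from Npy1r on the opposite strand, and the longest run Npy1r shared with another receptor transcript was 17 bases. An Npy read and an Npy1r read occurred together in 14 of the 65 Ngn3KO cells of set 2 with Npy (21.5%), against 17.6% with an Npy1r read among all Ngn3KO cells. For Neurod1OE cells of set 2 the numbers were 4 of 24 (16.7%), against 29.1%.

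Ppy and Pyy were linked cell by cell: every Ppy-high cell was also Pyy-high, in each group that had any. The counts were 50 of 50 in Ngn3KO and 29 of 29 in Neurod1OE cells of set 2, and 11 of 11 in Neurod1OE cells of set 3, so 90 of 90 in all, with no Ppy-high cell below 1000 CPM of Pyy. The converse did not hold. Of Pyy-high cells, 26% in Ngn3KO and 25.4% in Neurod1OE cells of set 2 were Ppy-high, and 22.4% in Neurod1OE cells of set 3.

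How far the overlap exceeds what the other cells show depends on the group. Among cells below 1000 CPM of Ppy, Pyy was high in 91.6% of Ngn3KO and 96.6% of Neurod1OE cells of set 2 (85 of 88 in Neurod1OE), so that nearly any subset of set 2 would overlap as much. In Neurod1OE cells of set 3, 38 of 84 such cells (45.2%) were Pyy-high. With a limit of 10000 CPM for both genes, all Ppy-high cells were again Pyy-high, namely 7 of 7 Ngn3KO and 5 of 5 Neurod1OE cells of set 2 and 7 of 7 Neurod1OE cells of set 3. Of the other cells, 37.4%, 38.4% and 13.6% of these 3 groups passed 10000 CPM of Pyy.

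Pyy levels were also higher in Ppy-high cells. In Ngn3KO cells of set 2 the median Pyy level was 23909 CPM in Ppy-high and 4816 CPM in the other cells, and in Neurod1OE cells of set 2 it was 13348 and 5322 CPM. In Neurod1OE cells of set 3 it was 30738 CPM in Ppy-high and 127.7 CPM in the other cells. Median totals were 297602 and 363181 in Ngn3KO cells, 575142 and 551116 in Neurod1OE cells of set 2, and 738010 and 682008 in Neurod1OE cells of set 3, so depth differed little between the classes. Median Gcg in set 2 was 50933 CPM in Ppy-high and 86662 CPM in the other Ngn3KO cells, and 26301 and 78316 CPM in Neurod1OE cells. In Neurod1OE cells of set 3 it ran the other way, at 720 CPM in Ppy-high and 88.2 CPM in the other cells.

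**Figure D3:**
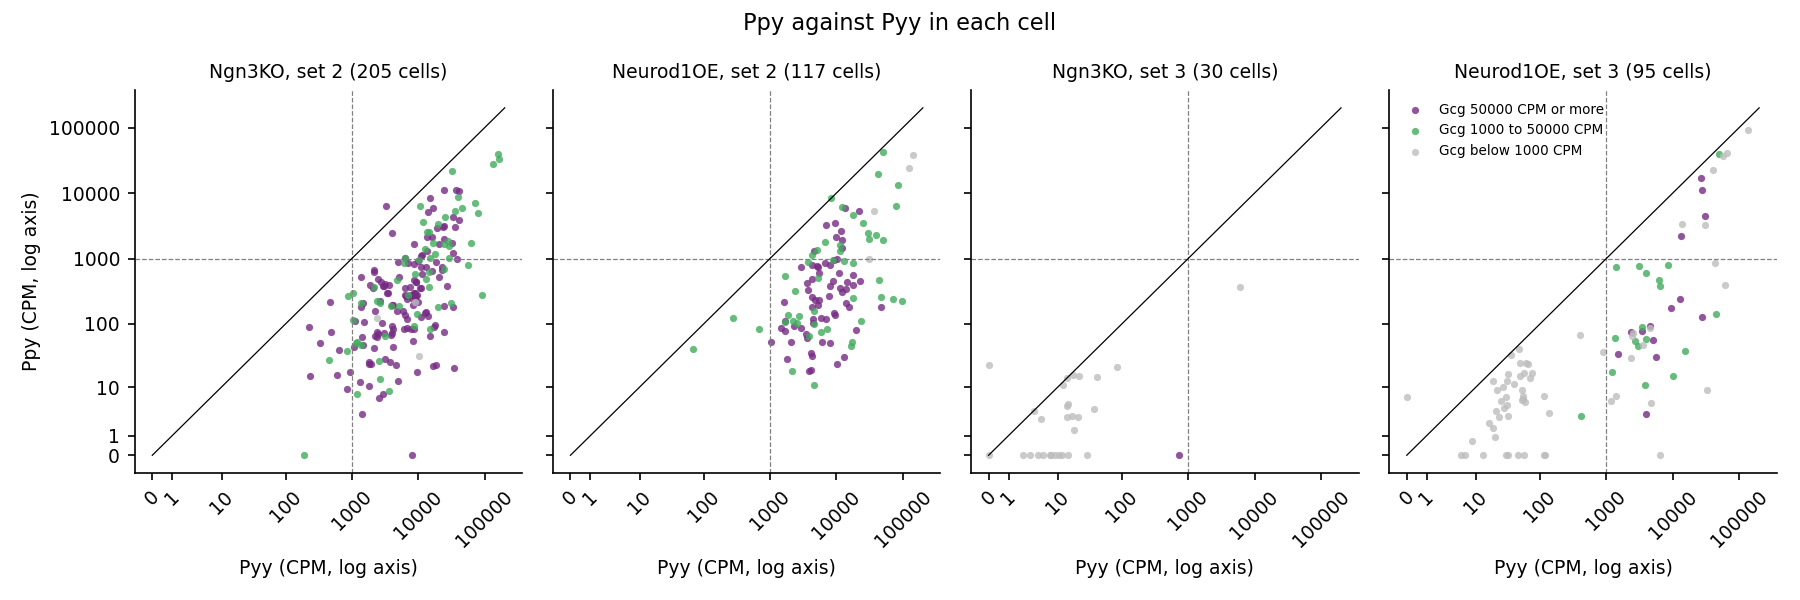
Ppy against Pyy in every cell of the 4 groups, in CPM on log10(CPM + 1) axes, coloured by the Gcg level of the cell, with the line of equal levels (solid) and 1000 CPM (dashed). The upper left corner, Ppy-high without Pyy, is empty in all 4 groups, and only 4 cells lie above the line of equal levels.

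Pyy exceeded Ppy in almost every cell. Ppy made up a median of 4.35% of the summed Ppy and Pyy reads of a cell in Ngn3KO and 4.75% in Neurod1OE cells of set 2, and 7.04% in Neurod1OE cells of set 3. Ppy passed Pyy in 4 of the 447 cells. Among these, a single Ngn3KO cell of set 2 had 6292 CPM of Ppy and 3263 CPM of Pyy, and Neurod1OE cell 82 of set 2 had 8549 and 8216 CPM. The other two, 1 in each genotype of set 3, had only 2 Ppy reads and 0 Pyy reads.

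In Ppy-high cells the Ppy share had medians of 12.4% in Ngn3KO and 18.3% in Neurod1OE cells of set 2. It was 35.9% in Neurod1OE cells of set 3. The other cells of these 3 groups had 3.12%, 3.10% and 3.51%. Because the classes were set by Ppy itself, a larger Ppy share in Ppy-high cells is largely built in and is no separate result. The cell with the most Ppy of the series, Neurod1OE cell 55 of set 3, had 90586 CPM of Ppy beside 133277 CPM of Pyy, with 39.5 CPM of Gcg and 2521 CPM of Cpa1. Among the 12 cells with the most Ppy, none had Gcg at 50000 CPM or more.

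By the mean correlation over the same 3 groups, Pyy was the gene most like Ppy, and Ppy the gene most like Pyy, of the 10469 genes compared with each. Spearman's correlation was 0.64 over the Ngn3KO cells and 0.55 over the Neurod1OE cells of set 2, and 0.77 over the 95 Neurod1OE cells of set 3. Within cells of one Gcg range in set 2 it was 0.77 and 0.55 in Ngn3KO cells with 1000 to 50000 and with 50000 CPM of Gcg or more, and 0.55 and 0.43 in the corresponding Neurod1OE cells. It was 0.72 in the 79 Neurod1OE cells of set 3 with Cpa1 below 1000 CPM, and 0.42 over the 30 Ngn3KO cells of set 3. Cells of a group share their preparation. Correlations of either gene with the cell's total count lay between -0.20 and 0.17 in these 3 groups.

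The genes next most like Ppy were Cpe (mean 0.38), the ETS factor gene Etv1 (0.37), the chromatin remodeller gene Smarca1 (0.33) and the lipid phosphatase gene Ocrl (0.33). Pyy had the same 4, in the order Smarca1 (0.47), Etv1 (0.43), Ocrl (0.42) and Cpe (0.36). Their values were largest in set 3. There Cpe stood at 0.772 with Ppy and 0.837 with Pyy, above the 0.766 between Ppy and Pyy themselves. In Neurod1OE cells of set 2 the values of Cpe were smaller, at 0.12 and 0.01. The mean correlation of 0.65 between Ppy and Pyy stood well above that of any of the 4.

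Other genes near the pair had smaller mean correlations with it, although Mpp2 and Hdac5 were at 0.33 and 0.30 with Ppy in Neurod1OE cells of set 3. Of 14 annotated genes within 100 kb of Ppy or Pyy, 8 were measured in set 2, the pair included, and 0 of the 8 were 2-fold apart between the genotypes, where 0.859% of all genes were higher and 1.67% lower. Tmem101, Lsm12, G6pc3 and Hdac5 reached 50 CPM in at least 1 group, and their mean correlations were 0.05, -0.16, -0.07 and 0.12 with Ppy and 0.05, -0.17, 0.01 and 0.08 with Pyy. Mpp2, named here after its values were seen and below 50 CPM in every group, had the highest mean values of the 6 other measured neighbours, 0.16 with Ppy and 0.17 with Pyy. With Pyy it reached 0.45 in Neurod1OE cells of set 3, where Hdac5 was at 0.38. In set 3, Lsm12 stood at 67.9 CPM in Ngn3KO and 56.4 CPM in Neurod1OE cells, whereas 6 of the 8 genes, the pair among them, were lower, as were 31.8% of all genes measured there.

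Within set 2 the summed levels of all 3 peptide genes differed between Gcg classes in at least 1 genotype. Gcg ranges are levels and not cell types, and the 3 cells below 1000 CPM of Gcg in Ngn3KO and the 4 in Neurod1OE are too few to compare. Ppy stood at 920 CPM in the 68.8% of Ngn3KO cells with Gcg at 50000 CPM or more and 2868 CPM in 61 Ngn3KO cells with Gcg of 1000 to 50000 CPM (log2 ratio -1.64), and at 650 CPM in 66 and 2647 CPM in 47 Neurod1OE cells (-2.02). Pyy stood at 9280 and 20576 CPM in the same classes of Ngn3KO (-1.15), and at 8984 and 20791 CPM in those of Neurod1OE (-1.21). By summed level both genes were at least 2-fold lower in the cells richest in Gcg, in both genotypes. The relation was weaker cell by cell. Median Pyy was 6746 and 12697 CPM in the 2 classes of Ngn3KO, and 6381 and 8919 CPM in those of Neurod1OE. Median Ppy was 238 and 581 CPM, and 248 and 479 CPM. Over all cells, Spearman's correlation with Gcg was -0.08 for Ppy and -0.09 for Pyy in Ngn3KO, and -0.27 and -0.28 in Neurod1OE.

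With hormone genes left out of the totals, so that Gcg reads themselves could not lower the other shares, the ratios were -1.54 for Ppy and -1.05 for Pyy in Ngn3KO and -1.90 and -1.09 in Neurod1OE cells. Ppy-high cells were 25 (17.7%, 11.8% to 25.1%) of those with Gcg at 50000 CPM or more and 25 of 61 (41%, 28.6% to 54.3%) with 1000 to 50000 CPM in Ngn3KO, and 9 of 66 (13.6%, 6.43% to 24.3%) and 17 of 47 (36.2%, 22.7% to 51.5%) in Neurod1OE. The Pyy-high share differed little, at 93.6% and 93.4% in Ngn3KO and 100% and 93.6% in Neurod1OE, so for Pyy the classes differed in level more than in the share of cells.

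Npy stood at 18.8 CPM in Ngn3KO cells with Gcg at 50000 CPM or more and 796 CPM in those with 1000 to 50000 CPM (log2 ratio -5.33). The share of cells with an Npy read ran the other way, at 33.3% and 26.2%. Its correlation with Gcg over all Ngn3KO cells of set 2 was 0.07. Cells 86 and 53, with the highest and the third highest Npy levels, belong to the second class, and cell 28 to the class below 1000 CPM of Gcg. In Neurod1OE cells Npy was at 9.30 and 5.22 CPM and was not a measured gene. Npy1r stood at 10.9 and 9.20 CPM in Ngn3KO (0.22) and at 10.98 and 4.23 CPM in Neurod1OE cells (1.20).

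Of the members, 3 were thus lower and 0 higher in Ngn3KO, where 6.07% of 10069 genes were lower and 1.94% higher. In Neurod1OE 2 were lower and 1, Npy1r, was higher, where 8.78% of 10296 genes were lower and 2.88% higher.

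**Figure D4:**
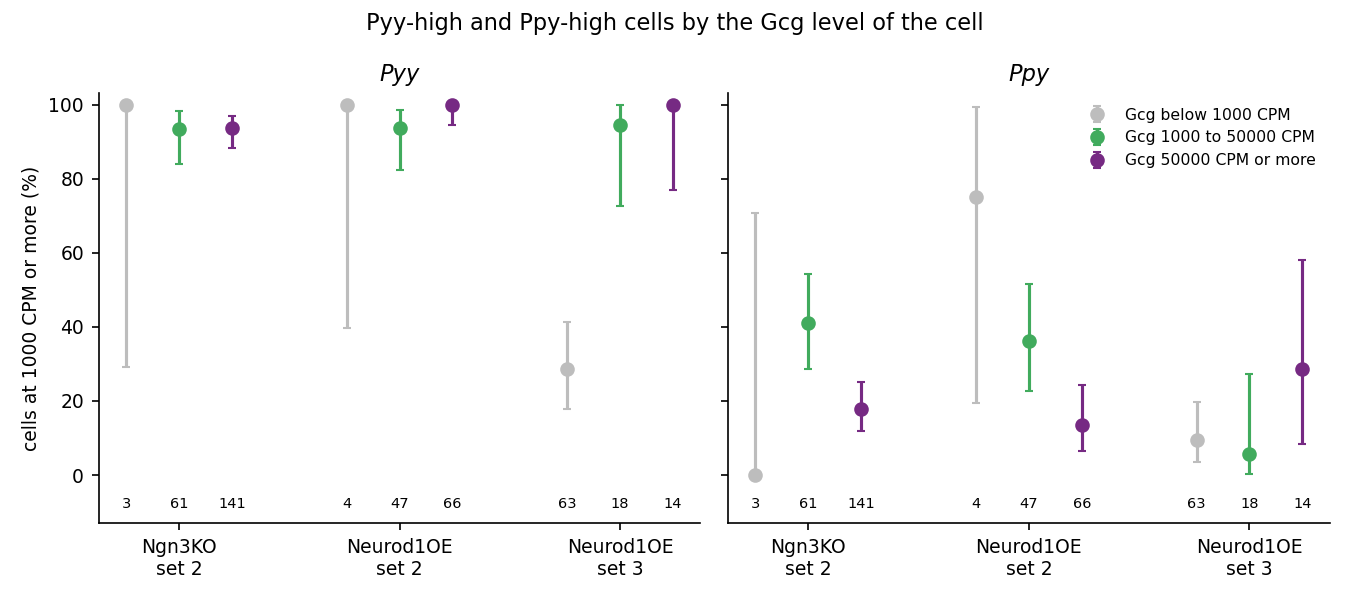
Share of cells at 1000 CPM or more of Pyy and of Ppy (points, in percent, with 95% exact Clopper-Pearson intervals) in cells grouped by Gcg level, with the number of cells under each point. In set 2 the Ppy-high share is 41% and 36.2% at 1000 to 50000 CPM of Gcg and 17.7% and 13.6% at 50000 CPM or more, while the Pyy-high share is 93.4% or more; in set 3 Pyy-high cells are 28.6% of those with little Gcg.

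In Neurod1OE cells of set 3, Pyy was high in 18 of 63 cells below 1000 CPM of Gcg (28.6%), 17 of 18 at 1000 to 50000 CPM and 14 of 14 at 50000 CPM or more. Of the 49 Pyy-high cells, 31 (63.3%) were also at 1000 CPM of Gcg or more, while 31 of the 32 cells at that Gcg level (96.9%) were Pyy-high. Ppy was high in 6 of 63, 1 of 18 and 4 of 14 cells, so that 6 of the 11 Ppy-high cells of set 3 had Gcg below 1000 CPM, against 3 of 29 in Neurod1OE and 0 of 50 in Ngn3KO cells of set 2. Cells with Gcg at 1000 CPM or more had 10807 CPM of Pyy against 6009 CPM in those below (log2 ratio 0.85), 1773 against 2623 CPM of Ppy (-0.56) and 22.2 against 4.10 CPM of Npy (2.19). Only Npy was 2-fold higher and 0 members lower there, with 13.4% of 10807 genes higher and 18.3% lower, and cell 78 held 64.1% of the Npy reads at 50000 CPM of Gcg or more.

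Overlap of Ppy with ghrelin, insulin and somatostatin RNA was smaller than with Pyy. Ghrelin RNA (Ghrl) reached 1000 CPM in 2 of 50 Ppy-high Ngn3KO cells (4.00%) and 3 of 29 Ppy-high Neurod1OE cells (10.3%) of set 2, against 14.2% and 7.95% of the cells without high Ppy. Insulin was high in 2 of the 50 and 3 of the 29, against 5.16% and 2.27% of the cells without high Ppy. Somatostatin RNA (Sst) was high in 1 of the 50 and 0 of the 29, against 0.65% and 0%. For Iapp only correlations were computed. With Ppy they were -0.16 in Ngn3KO and -0.05 in Neurod1OE cells of set 2 and 0.54 in Neurod1OE cells of set 3. With Pyy they were -0.05, 0.05 and 0.75. In each of the 3 groups, 4 of 7 PP markers, Ppy included, stood at 50 CPM or more in the Ppy-high cells together and likewise in the other cells together. All 10 alpha markers did so in the summed Ppy-high cells, although single cells among them had almost no Gcg. In the other cells 9 of 10 did so in Ngn3KO cells of set 2, and all 10 in both Neurod1OE groups. The alpha list summed to 89549 CPM in Ppy-high and 111835 CPM in other Ngn3KO cells of set 2. In Neurod1OE cells it summed to 57061 and 93436 CPM in set 2, and to 62432 and 38124 CPM in set 3. These sums over cells do not show whether Ppy-high cells form a class of their own.

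Between the sets, Pyy was lower by more than 2-fold in Neurod1OE cells of set 3, and Ppy was within 2-fold. Pyy stood at 7588 CPM in set 3 and 16953 CPM in set 2 (log2 ratio -1.16), and Ppy at 2343 and 2147 CPM (0.13). Of the 2 members measured in this comparison 1 was lower and 0 higher, where 4.21% of 10559 genes were lower and 8.88% higher. Among cells with Gcg at 1000 CPM or more, 32 in set 3 and 96.6% of those in set 2, Pyy stood at 10807 and 14348 CPM (-0.41) and was no longer 2-fold apart. Of all Neurod1OE cells, 16 of set 3 had Cpa1 at 1000 CPM or more, against 2 of set 2.

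The machinery that makes and trims these peptides was at like levels in both genotypes of set 2, as were most genes. Of 10 peptide handling genes, all measured, 0 were 2-fold higher and 0 lower in Ngn3KO cells. Their median log2 ratio was -0.000327 beside -0.07 for all genes. Over all 10010 genes measured there, 0.859% were higher and 1.67% lower, so a count of 0 among 10 does not set these genes apart. The convertase gene Pcsk2 stood at 2090 CPM in Ngn3KO and 2113 CPM in Neurod1OE cells, Cpe, which trims basic residues, at 2338 and 2370 CPM, and Pam, which amidates peptide ends, at 1881 and 1687 CPM. The convertase gene Pcsk1 was far lower than Pcsk2, at 97.9 and 96.9 CPM. Dpp4, whose product shortens neuropeptide Y and peptide YY at their start, was at 173.4 and 142.1 CPM.

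Granule genes and convertase partners gave a similar picture in set 2. Chga stood at 1408 CPM in Ngn3KO and 1140 CPM in Neurod1OE cells, Chgb at 837 and 899 CPM, Scg5, which assists Pcsk2, at 362 and 456 CPM, and Pcsk1n, which inhibits Pcsk1, at 411 and 468 CPM. In set 3, 9 of the 10 genes were lower in Ngn3KO cells and 0 higher, where 31.8% of 10478 genes were lower and 5.96% higher. The median log2 ratio was -3.05 beside -0.57 for all genes. Cpa1 reached 1000 CPM in 96.7% of these Ngn3KO and 16.8% of these Neurod1OE cells, and the part of this makeup was not tested. Pcsk2 stood there at 49.9 CPM in Ngn3KO and 1066 CPM in Neurod1OE cells, and Dpp4 at 1.90 and 72.3 CPM. Pcsk1 was the exception, at 121.9 CPM in Ngn3KO and 112.3 CPM in Neurod1OE cells.

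**Figure D5:**
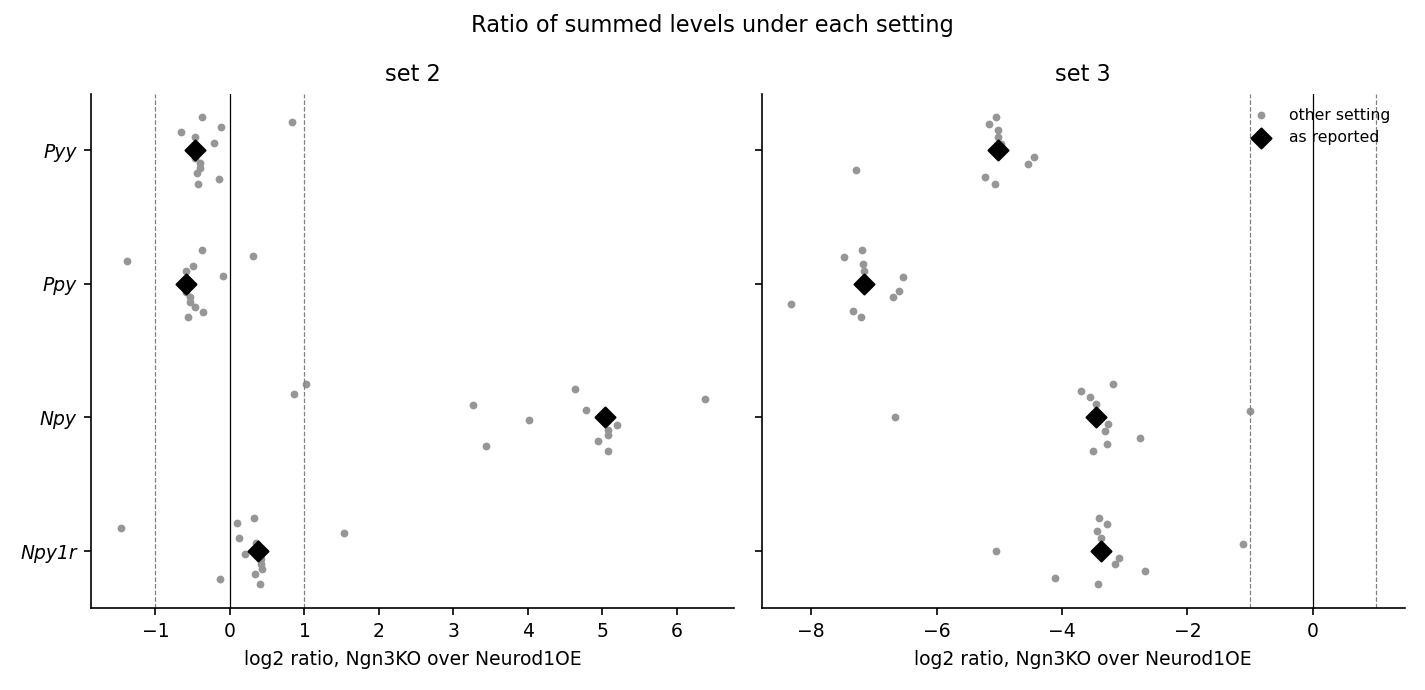
Log2 ratio of Ngn3KO over Neurod1OE for the summed level of each gene in set 2 and set 3, as reported (diamonds) and under every other setting tried (grey points), with 2-fold marked by dashed lines. In set 2 the ratio of Npy is positive under all settings and those of Pyy, Ppy and Npy1r lie on both sides of 0; in set 3 all points are negative.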

How the data were processed

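RNA of 447 single cells was measured by Smart-seq3 in 384-well plates: 205 Ngn3KO and 117 Neurod1OE cells in set 2, and 30 Ngn3KO and 95 Neurod1OE cells in set 3. Per the labels, libraries were read as 100-base pairs on an MGIseq-2000; the submitters' processing notes list Trimmomatic 0.39, HISAT2 2.1.0, featureCounts 2.0.0 and mm10. The deposited values are raw counts of reads per gene and cell, 1 matrix per set; the annotation, strand setting and any use of molecule tags are not given in the sources used here. The 92 spike-in sequences held 24 reads and were left out. All cells had 4114 or more genes with reads, none shared a name or had identical values, and no doublet caller was run on sorted single cells.

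Within each genotype and set the counts of all cells were added up and scaled by their plain total (CPM). Ratios are log2 after adding 1 CPM; 2-fold was the limit for a call. No p-value was computed. The steps were tested on simulated data. The values of 1 marker of the neural or Schwann list are not reported here. Members, gene lists and settings were chosen with earlier results of these data known. Named genes were the 4 members, the receptor list, peptide handling genes and neighbours within 100 kb at 50 CPM or more in 1 group, and the 5 genes most like each peptide gene by mean Spearman correlation of log2(CPM + 1) if positive in each of 3 groups, predicted, mitochondrial and ribosomal genes left out. Levels per kilobase use the bases covered by all exons of a gene in GENCODE vM21. Promoters of all 4 members were matched in RefSeq. Alternatives were other scaling (edgeR 4.0.16, DESeq2 1.42.0, R 4.3.3), pseudocounts, filters and cell subsets. Python 3.11.15, numpy 2.4.6, scipy 1.17.1, pandas 2.3.3 and matplotlib 3.10.9 were used.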

Additional observations from a re-analysis of the deposited data

Results flagged for a closer look

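The ratio of Npy between the genotypes had opposite signs in the sets. On the log2 scale it was 5.03 in set 2 (Ngn3KO over Neurod1OE), from 269 CPM in Ngn3KO and 7.27 CPM in Neurod1OE cells, and -3.47 in set 3, from 0 reads in Ngn3KO and 10.0 CPM in Neurod1OE cells. The set 3 ratio depends on the 1 CPM added. Set at 3 counts over the group, the Npy level of Ngn3KO cells would be 73.9-fold lower, which is not a lower bound. The difference between the sets was not tested, because each genotype in each set was 1 sample. In set 3 Npy had reads in 9 of 95 Neurod1OE cells, below the limit for a measured gene, and 0 of the 30 Ngn3KO cells there were rich in insulin RNA, against 10 Ngn3KO cells in set 2. Of the Ngn3KO cells of set 3, 29 had Cpa1 at 1000 CPM or more and Gcg below 1000 CPM. The 15 Neurod1OE cells of that kind had 1 Npy read.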

How the results depend on the processing

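Of 92 alternative values of the counts of 2-fold members and of the Ppy and Pyy overlap, 81 stayed within 1.5 times the value reported, 11 moved and 0 reversed. Among the alternative log2 ratios of single genes, 77 stayed within the counting interval of the ratio reported and 99 moved. In set 2 (Npy higher, 0 lower), 2 members were higher with Gm12338 at 10 CPM or more (Npy, Npy1r), and 0 higher and 2 lower (Ppy, Npy1r) with Gm12338 below 10 CPM. In set 3 (Ppy and Pyy lower), 4 were lower with no filter on low values. Between the sets in Neurod1OE cells (Pyy lower, 0 higher), 0 were lower with cells weighted equally, 1 was higher (Npy) and 0 lower among cells with Gcg at 1000 CPM or more, and 1 was higher (Npy) among male cells. Between Gcg classes, dividing at 20000 CPM gave 1 higher (Npy1r) in Ngn3KO and 0 higher in Neurod1OE cells, and leaving out the top cell of each gene gave 0 higher in Neurod1OE cells. The share of all genes past 2-fold under each of these settings is not reported here. The counts therefore show only how the calls for the members moved, and not whether they stand out among all genes. The cause was not tested, except that the filter itself admits genes with few reads.

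The log2 ratio of Npy in set 2 ran from 0.87 to 6.38 over 14 alternatives and that of Pyy in set 3 from -7.29 to -4.44 over 11. The Ppy-high cells were all Pyy-high at 100 CPM (257 of 257), at 10000 CPM (19 of 19), in thinned cells (77 of 77) and with Gcg at 1000 CPM or more (81 of 81). Such counts say little where nearly every cell passes for Pyy, as in set 2 at 100 CPM. It was also so with Gcg at 1000 CPM or more, in set 2 and in Neurod1OE cells of set 3 (96.9%). At 10000 CPM, Pyy passed in 37.4% of the other Ngn3KO and 38.4% of the other Neurod1OE cells of set 2. In the other Neurod1OE cells of set 3 it passed in 13.6%. For thinned cells this share is not reported here. Ratios in set 3 within cells at 1000 CPM of Gcg, or below 1000 CPM of Cpa1, could not be computed because 1 Ngn3KO cell was left. Settings that leave out insulin-high, Cpa1-high or Sox10-positive cells were chosen after seeing the data. No paired analysis was possible because the numbers in the titles only name cells and no result comes from a test. Npy1r had 6 reads and Npy 0 reads in Ngn3KO cells of set 3, where a count of 3 would be 0.136 CPM.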
